A study of Homo sapiens with 2 samples.

Results

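The IFITM and IFI genes described here are 8 interferon-induced genes: IFITM1, IFITM2, IFITM3, IFI6, IFI27, IFI35, IFI44 and IFI44L. Their members were taken as every probe set whose annotation names 1 of these genes and no other, which gave 8 of the 19775 genes named on the array and 9 of its 54675 probe sets. IFI44 had 2 probe sets and the other 7 genes had 1 each. The genes were chosen by family name with their differences between these same 2 arrays known, so the values below are a description and carry no test.

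RNA came from HCT116, a human colorectal cancer cell line, in 2 cultures with 1 expression array each. The first culture, HCT116-GFP, is labelled wild type and is the control. The second, HCT116-CPEB4, is labelled as over-expressing CPEB4, an RNA-binding protein that acts on poly(A) tails and translation, after lentiviral delivery. The labels do not say whether the GFP cells carried a vector of their own or whether either line is 1 clone. Both cultures were kept in the same medium with 10% serum, and no interferon treatment is described for either.

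Interferons are antiviral cytokines that signal through cell-surface receptors and JAK kinases to STAT proteins and IRF9. The resulting complex binds the interferon-stimulated response element (ISRE) in the promoters of its target genes. IFITM1, IFITM2 and IFITM3 are small membrane proteins that hinder the fusion of enveloped viruses with cell membranes. IFITM1 sits mainly at the cell surface, and IFITM2 and IFITM3 mainly in endosomes and lysosomes. IFI6 and IFI27 are small hydrophobic proteins of 1 family that localise to internal membranes, IFI35 is a leucine zipper protein that pairs with NMI, and IFI44 and IFI44L are related cytosolic proteins encoded side by side.

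The promoters are shown because most of these genes differed between the arrays in 1 direction, and because the IFITM genes did not differ alike. RefSeq windows, running from 250 bases before to 50 after the transcription start, were at hand for 7 of the 8 genes (all but IFITM2). The lines below give the 200 bases before the start on GRCh38.p14, 5′ to 3′ on the gene's strand, in lower case. Capitals mark matches to GAAANNGAAA, the core of the ISRE with a 2-base spacer, or to GAAANGAAA, the same letters with a 1-base spacer, each searched on both strands. A match on the opposite strand appears as its reverse complement.
IFITM1 (chr11:313840-314039, plus strand): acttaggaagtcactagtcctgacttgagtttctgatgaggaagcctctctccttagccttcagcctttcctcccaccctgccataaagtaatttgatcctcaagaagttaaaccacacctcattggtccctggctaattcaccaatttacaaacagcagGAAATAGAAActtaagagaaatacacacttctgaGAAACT
IFITM3 (chr11:320861-321060, minus strand): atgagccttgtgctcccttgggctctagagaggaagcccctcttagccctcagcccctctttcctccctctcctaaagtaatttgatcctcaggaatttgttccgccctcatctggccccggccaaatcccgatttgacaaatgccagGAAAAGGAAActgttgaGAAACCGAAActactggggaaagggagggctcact
IFI6 (chr1:27672193-27672392, minus strand): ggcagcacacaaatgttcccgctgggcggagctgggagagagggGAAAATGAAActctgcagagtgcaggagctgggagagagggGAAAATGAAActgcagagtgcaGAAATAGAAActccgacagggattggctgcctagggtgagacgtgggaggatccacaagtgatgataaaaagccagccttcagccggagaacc
IFI27 (chr14:94110536-94110735, plus strand): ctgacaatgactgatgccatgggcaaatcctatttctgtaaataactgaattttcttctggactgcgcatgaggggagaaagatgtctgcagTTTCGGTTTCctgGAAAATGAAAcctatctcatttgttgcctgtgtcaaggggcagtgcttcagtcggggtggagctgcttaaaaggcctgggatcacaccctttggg
IFI35 (chr17:43006584-43006783, plus strand): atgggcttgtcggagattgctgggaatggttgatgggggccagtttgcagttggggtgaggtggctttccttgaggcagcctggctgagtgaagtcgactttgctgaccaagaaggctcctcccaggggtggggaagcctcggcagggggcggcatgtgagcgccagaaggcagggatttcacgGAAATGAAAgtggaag
IFI44 (chr1:78649589-78649788, plus strand): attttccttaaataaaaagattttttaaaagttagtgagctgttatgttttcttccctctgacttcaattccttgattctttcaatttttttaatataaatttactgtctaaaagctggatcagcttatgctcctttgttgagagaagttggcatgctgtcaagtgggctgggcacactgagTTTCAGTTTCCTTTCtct
IFI44L (chr1:78620248-78620447, plus strand): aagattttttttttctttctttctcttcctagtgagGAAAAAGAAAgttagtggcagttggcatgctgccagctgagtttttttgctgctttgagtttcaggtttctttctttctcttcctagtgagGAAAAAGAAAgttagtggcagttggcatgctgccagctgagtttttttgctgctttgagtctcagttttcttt

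At least 1 match to GAAANNGAAA was found in 6 of the 7 members with a window, against 4.38% of the 27305 genes in the table. IFI6 held 3 matches, between 156 and 84 bases upstream of the start, and 2 of them read GAAAATGAAA. IFI27 held 2 on opposite strands, the nearer of which also read GAAAATGAAA, and both lay in each of its 2 overlapping windows. IFI44L held GAAAAAGAAA at 2 places within a repeated stretch. IFITM1 and IFITM3 held 2 matches each, and the second match of IFITM1 crossed the start, so only its upstream bases are printed. IFI44 held 1 match, on the opposite strand.

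IFI35 was the 1 gene without GAAANNGAAA in its window. It held GAAATGAAA, a match to GAAANGAAA, which occurs in the windows of 3.87% of all genes. The IFI44 window held both patterns at overlapping positions. TTCNNNGAA, the letters of the GAS element used by STAT dimers, was found in IFITM1, IFI27 and IFI35 and in 9.38% of all genes, and each of these 3 matches overlapped a capitalised one. These are matches of letters and not measured binding sites.

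**Figure D1:**
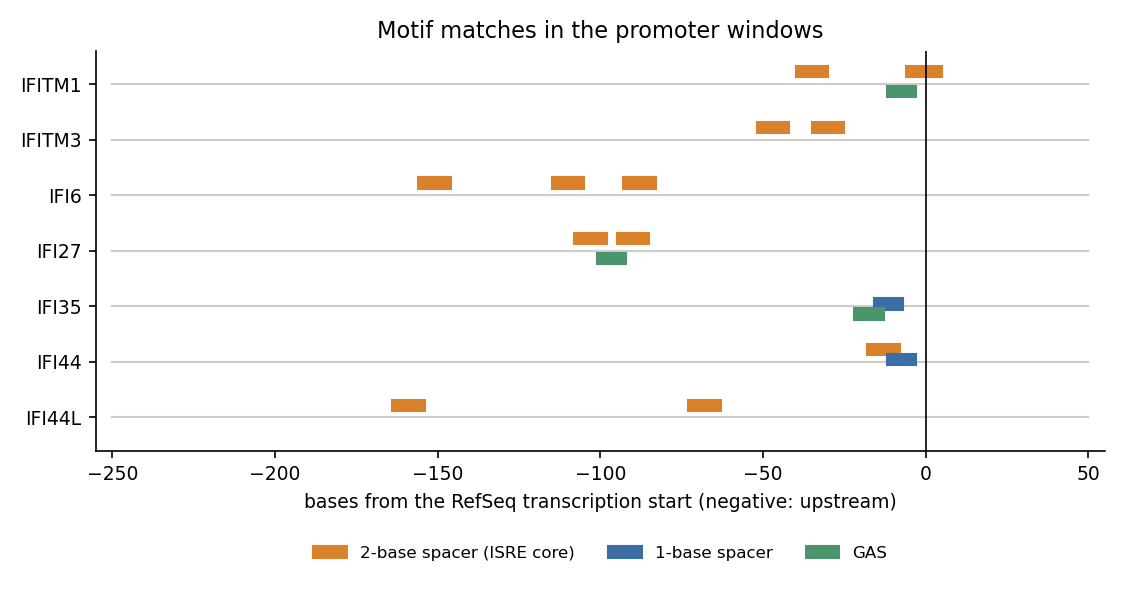
Positions of motif matches in the first RefSeq promoter window of 7 member genes, in bases from the transcription start (x axis, negative upstream), with 1 row per gene. Orange boxes are matches to the ISRE core, blue boxes matches with a 1-base spacer, and green boxes GAS matches; IFI6 has 3 orange boxes and IFI35 none.

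Intensities were compared as deposited, on a linear scale. The difference is the log2 intensity of the array labelled HCT116-CPEB4 minus that of HCT116-GFP, so 1 is 2-fold. A probe set was called dim when neither array reached 60.8, the 50th percentile of all values, and a gene took the value of its brightest probe set that was not dim. With 1 array per group there is no spread between replicates, no p-value can be given, and 2-fold is a rule of size.

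Facts of the arrays that bear on every value are these. At its brightest probe set by mean log2 intensity CPEB4 read 731 for HCT116-GFP and 628 for HCT116-CPEB4, a difference of −0.22, and at the next 758 and 558, a difference of −0.44. All 4 of its probe sets were lower on the second array. Where they lie on the CPEB4 transcript was not examined, so whether they read RNA from the delivered sequence was not tested. Directions below hold only as far as the labels do, and the second array is called the array labelled HCT116-CPEB4. The 3′ to 5′ signal ratio of ACTB, which grows as RNA degrades, was 8.23 for HCT116-GFP and 10.3 for the labelled array, while that of GAPDH was 0.989 and 1.04. Of 12 colon epithelium markers, 9 were above the dim filter, with summed intensities of 87772 and 88687 (EPCAM read 20994 and 20717), whereas CDH17, GPA33 and LGALS4 were dim on both arrays. Differences of the 9 ran from −0.41 for KRT20 to 2.47 for CDX1, and 7 had both arrays above the filter. CDX1 (18.0 and 99.5) and VIL1 (32.2 and 77.0) were under it on the HCT116-GFP array, and another VIL1 probe set differed by −5.60. Of the blood and immune markers with a probe set, 7 of 10 were dim, among them PTPRC, and all 5 markers of plasmacytoid dendritic cells, a major source of interferon, were dim. Dim too were 6 of 8 fibroblast and 5 of 7 endothelial markers. The summed intensity of the 3 blood and immune markers above the filter was 388 for HCT116-GFP and 317 for the labelled array, although CSF1R read 26.4 and 68.8. That of the 2 fibroblast markers above it, COL1A1 and DCN, was 992 and 1394, and that of the 2 endothelial markers 215 and 106. COL1A1 made up most of the fibroblast sum, at 949 and 1292, but its 4 measured probe sets differed by −3.05 to 0.63. DCN, at 43.2 and 102, was under the filter on the HCT116-GFP array. The part of RNA quality and of these markers in the differences below was not tested. In RNA from whole cultures, fewer cells of a kind and less RNA per cell cannot be told apart.

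Of the 8 genes, 7 had a probe set above the dim filter, and 5 of these 7 were at least 2-fold higher on the array labelled HCT116-CPEB4. None was lower by 2-fold. Over all 13704 genes measured in the same way, 3.55% were higher by 2-fold or more and 3.85% were lower. The median difference of the 7 genes was 1.91, or 3.76-fold, and that of all genes was 0.00090. IFI44 was under the filter on the HCT116-GFP array and was measured only through the array where it was higher. With both arrays at the filter 4 of 6 members were higher by 2-fold or more, against 0.734% of all genes, and the member median was 1.48. Because these differences led to the choice of the genes, the counts say nothing further about them. The 5 genes were not alike in size, and IFITM2 and IFITM3 differed little.

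**Figure D2:**
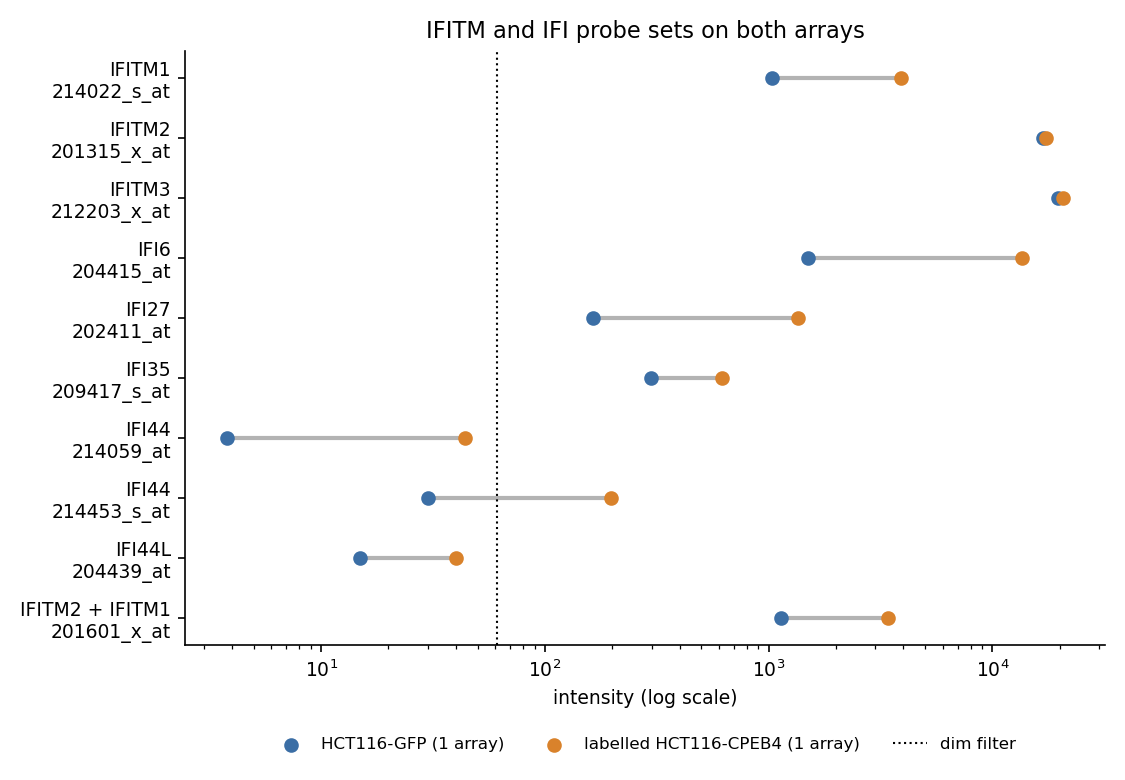
Intensity (x axis, log scale) of the 9 member probe sets and of 1 probe set shared by IFITM2 and IFITM1, on the HCT116-GFP array (blue) and the array labelled HCT116-CPEB4 (orange), with the dim filter of 60.8 as a dotted line. The orange point lies to the right in every row, by the least for IFITM2 and IFITM3, and IFI44L and 1 IFI44 probe set lie left of the line on both arrays.

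Among the IFITM genes, IFITM1 stood apart from its paralogues. IFITM1 read 1033 for HCT116-GFP and 3889 for the labelled array, a difference of 1.91 or 3.76-fold. IFITM2 read 16798 and 17277, a difference of 0.04. IFITM3 read 19684 and 20659.8, a difference of 0.07. The IFITM2 difference was thus 1.87 smaller than that of IFITM1, and the IFITM3 difference 1.84 smaller.

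A further probe set, annotated to both IFITM1 and IFITM2 and therefore outside the rule, read 1134 and 3415. Its difference of 1.59 lay 0.32 below that of IFITM1, closer to IFITM1 than to the probe set of IFITM2 alone. The IFITM1 probe set name ends in _s_at, which was left out along with _x_at in an alternative below. The 3 genes are close copies of each other. The probe set names of IFITM2 and IFITM3, and that of the shared probe set, end in _x_at, the manufacturer's mark for possible cross-hybridisation. The share of each gene in its probe set's signal is therefore uncertain. The sequences printed above for IFITM1 and IFITM3 were identical at 64.2% of 212 aligned columns, against 36.8% to 49.6% for the other pairs of members, and both carry the capitalised ISRE core.

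IFITM2 and IFITM3 were read by some of the brightest probe sets on the array. On the HCT116-GFP array 0.893% of probe sets were brighter than that of IFITM2 and 0.754% brighter than that of IFITM3. Among the 577 genes that read 10000 or more there, 0% were higher and 0% lower by 2-fold or more. Differences in that group ran from −0.71 to 0.45 with a median of −0.07. IFITM3 was exceeded by 113 of the 577 genes. All of these bright genes thus lay within 2-fold. The group was chosen on the HCT116-GFP array alone, so genes that reached 10000 only on the labelled array are not in it. IFI6, at 1498 and 13506.5, and the effector ISG15, at 7152 and 21379, are such genes. How far the signal of the brightest probe sets is compressed was not tested.

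IFI6, which helps cells withstand flaviviruses, had the largest difference of the 7 measured genes. It read 1498 for HCT116-GFP and 13506.5 for the labelled array, a difference of 3.17 or 9.01-fold. Its family member IFI27 read 164 and 1346, a difference of 3.03 or 8.18-fold. Both arrays were above the dim filter for both genes, so neither difference rests on a dim value. Requiring that of both arrays left 12130 genes, of which 0.734% were higher and 0.577% lower by 2-fold or more. Of the 8 members 6 passed that filter and 4 of them were higher by 2-fold or more. Among these 12130 genes 3 were higher by more than IFI6 and 4 by more than IFI27, and among all 13704 measured genes 41 and 56 were. The other family members on the array, IFI27L1 and IFI27L2, which flank IFI27 on chromosome 14, read 902 and 1678 for HCT116-GFP and 809 and 1864 for the labelled array. Their differences were −0.16 and 0.15, so the genes on either side of IFI27 differed little.

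IFI35 was the member closest to the 2-fold line. It read 299 and 619, a difference of 1.05 or 2.07-fold, and 74 of the 12130 genes with both arrays above the filter were higher by more. With 50 added to each intensity its difference was 0.94, under 2-fold, and in the 6 other alternatives that could be computed it stayed at or above 1. NMI, the partner protein of IFI35, read 550.5 and 802, a difference of 0.54. Partner and member were thus both higher, by unequal amounts.

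IFI44 and IFI44L were the dim members. The brighter IFI44 probe set read 30.2 for HCT116-GFP, under the dim filter, and 197 for the labelled array, a difference of 2.71 or 6.53-fold. The other IFI44 probe set read 3.80 and 43.9, dim on both arrays, with a difference of 3.53. IFI44L read 15.0 and 39.9, also dim on both arrays, with a difference of 1.41. All 3 probe sets were higher on the labelled array by more than 2-fold. So were 12.9% of all 54675 probe sets, a total of 7047, of which 6810 had at least 1 array under the filter. Of the 24877 probe sets dim on both arrays, 5473 were higher by 2-fold or more, so such a difference is common among dim probe sets. The fold of IFI44 depends on how low values are treated: with 50 added to each intensity, its difference was 1.62.

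**Figure D3:**
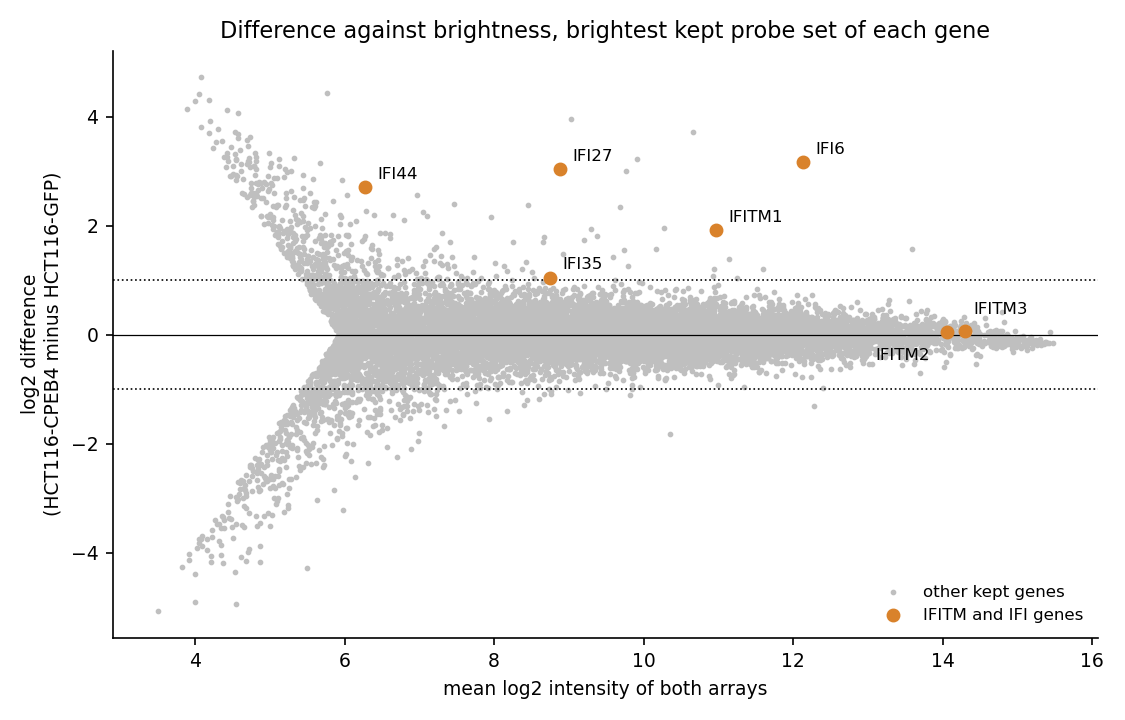
Log2 difference between the arrays (y axis) against mean log2 intensity (x axis) for the 13704 measured genes (grey) and the 7 measured member genes (orange), 1 point per gene at its brightest probe set; dotted lines mark 2-fold. IFI6, IFI27 and IFITM1 lie above most genes of their brightness, IFI35 lies at the upper dotted line, and IFITM2 and IFITM3 lie near 0 at the bright end.

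The other genes of the interferon pathway were described by lists, chosen like the members with earlier results of these arrays known. Of 28 other interferon-induced effectors above the filter, 21 were higher by 2-fold or more, against 3.55% of all measured genes. Another 1 was lower, against 3.85% of all genes, and the median difference of the 28 was 1.67. The farthest were the cap-sensing protein IFIT3 at 3.95, with 1.78 at its other probe set, and the oligoadenylate synthetase OAS2 at −1.49, dim on the labelled array. OAS1, MX1, RSAD2, XAF1 and TRIM22 were higher by 2-fold or more but dim on the HCT116-GFP array. They entered the 28 only through the array where they were higher. With both arrays above the filter, 16 of 21 effectors were higher by 2-fold or more, against 0.734% of all genes. The 4 measured IFI members had a median of 2.87 and the 3 IFITM members a median of 0.07.

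Most receptor and signalling genes differed little. Of 13 genes above the filter, 1 was higher by 2-fold or more and none lower, with a median of 0.04. The transcription factor IRF7 read 323 and 1071, a difference of 1.73, and IRF9 read 566 and 1052, a difference of 0.89. The kinase JAK2 was lowest at −0.65, although its other probe set read 0.44. Probe sets of JAK1 ran from −0.23 to 0.83 and those of IRF1 from 0.25 to 0.85, all within 2-fold. Among 6 inhibitors of the pathway, USP18, which binds the type I receptor and is itself interferon-induced, differed by 0.80, and IRF2 by −0.42, with a median of −0.20.

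Of the interferon genes themselves, 18 of 20 listed had a probe set and 16 of these were dim. The remaining ones were the type III interferons IFNL2, at 77.0 and 404 (a difference of 2.39), and IFNL1, at 52.7 and 147 (1.48, dim on the HCT116-GFP array). IFNL genes are close copies of each other, so their probe sets may not read 1 gene alone. Receptor genes for the type III interferons, IFNLR1 and IL10RB, both differed by −0.13.

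**Figure D4:**
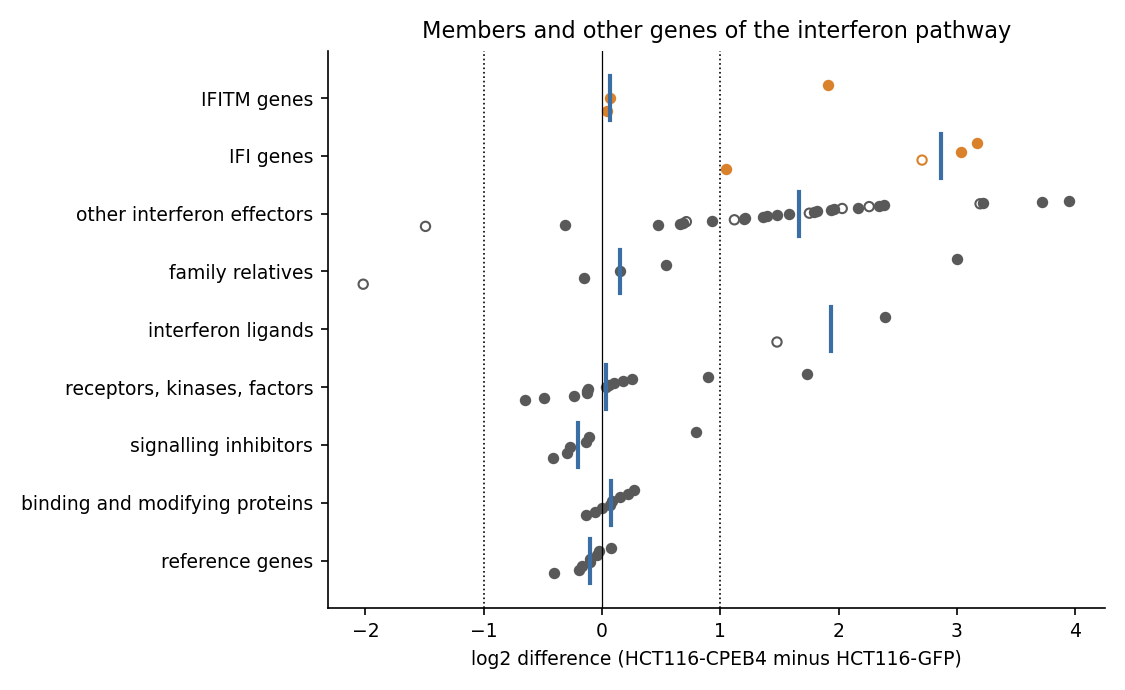
Log2 difference between the arrays (x axis) for each measured gene of the members and of 7 other lists, 1 point per gene, with members in orange, list medians as blue bars, and open points for genes with 1 array under the dim filter; dotted lines mark 2-fold. The IFI genes and the other effectors lie mostly right of 1, while receptors, inhibitors, binding proteins and reference genes gather around 0.

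Proteins that bind or modify the members differed little. Of 8 measured genes none passed 2-fold in either direction, and the median was 0.08. ZMPSTE24, a membrane protease that works with IFITM proteins, differed by 0.27 and VAPA, a membrane protein bound by IFITM3, by −0.13. Among relatives by name or family, the RNA sensor IFIH1 read 309 and 2469.6, and its other probe set differed by 1.83 on the log2 scale. IFITM10, an IFITM relative, read 64.8 and 16.0, a difference of −2.02 that ends in a dim value. Reference genes had a median of −0.10 over 8 genes, from TBP at −0.41 to SDHA at 0.08, each at its brightest probe set. The 3 probe sets of B2M ran from −0.02 to 0.95, within 2-fold.

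Neighbouring genes gave no difference of 2-fold where both arrays were above the filter. On chromosome 11 the 3 IFITM genes lie together between PGGHG (−0.17) and PKP3 (0.33), the nearest measured genes on either side. IFI6 lies between AHDC1 (−0.26) and FAM76A (0.41), and IFI35 between RPL27 and VAT1, which both differed by −0.17. IFI44L and IFI44 lie between DNAJB4 (−0.21) and ADGRL2, which read 62.2 and 3.24, the second value far under the filter.

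For each member at or above 2-fold, the 3 genes nearest in log2 intensity over both arrays were found, among genes with both arrays above the filter. EIF2AK2, HERC5 and ZC3HAV1 were nearest to IFITM1, at distances of 0.44, 0.51 and 0.59 log2 units, with differences of 1.40, 1.20 and 1.08. IFIT3, IFIT2 and CMPK2 were nearest to IFI27, at 0.69, 0.76 and 0.93. IFI6 had no near gene, the closest being PLSCR1 at 1.59, followed by COX20 and ATAD2, both at 1.73. SIRPA, ACP2 and COMMD9 were nearest to IFI35, at 0.15, 0.15 and 0.16. For IFI44 the filter itself set the distances, since IFI44 was under it on the HCT116-GFP array and the candidates could not be, so no genes are named. A match over 2 arrays describes brightness and difference alone.

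The member differences changed little with the processing, apart from those with a low value. Over the alternatives that could be computed, IFI6 ran from 3.13 to 3.19, IFITM1 from 1.86 to 1.91, IFI27 from 2.70 to 3.03 and IFI44 from 1.62 to 2.71. IFITM2 ran from 0.04 to 0.08 and IFITM3 from 0.07 to 0.13, above 0 throughout. Under the stricter filter, 1 array had to reach 377, the 75th percentile of all values. There 4 of 6 members were higher by 2-fold or more, against 0.473% of all genes. IFI27 (164) and IFI35 (299) were under 377 on the HCT116-GFP array and passed only through the array where they were higher. After leaving out probe sets ending in _x_at or _s_at, only IFI6 and IFI27 remained measured.

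**Figure D5:**
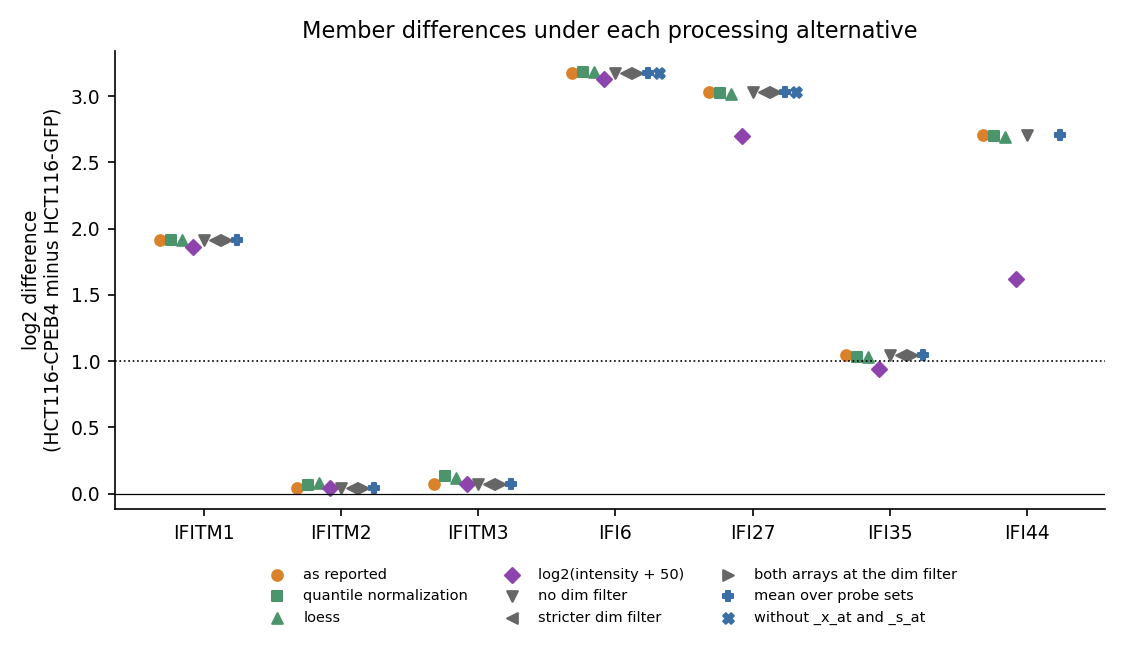
Log2 difference between the arrays (y axis) of the 7 measured member genes (x axis) as reported (orange) and under up to 8 processing alternatives (other symbols), with 2-fold as a dotted line. Adding 50 to each intensity (purple) moves IFI44 from 2.71 to 1.62, IFI27 from 3.03 to 2.70 and IFI35 to just under the line, and the other symbols overlap.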

How the data were processed

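The authors' deposited table holds 1 linear intensity per probe set for each of 2 arrays, hybridised with biotin-labelled material from total RNA, per the labels. Per the submitters' processing notes Partek was used, with no version or role given; how probes were summarised, background-corrected and scaled is not stated. Both arrays have a mean of 500.1 after trimming 2% at each end, and 0 columns were left unused. Of 54675 probe sets, 41097 were annotated to 1 gene, 1801 to several and 11777 to none. The 62 control probe sets were left out of the gene values. They stayed in the filter percentile, the trimmed means and the shares over all probe sets. Symbols were updated by Entrez identifier to RefSeq (41043 matched). No probe set positions were used.

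Log2 differences took no pseudocount. Genes were kept where 1 array reached 60.8, leaving 25010 probe sets. All members were named, with the highest and lowest gene of each list, IRF9, USP18, NMI and CPEB4; 2 other genes of that rule are not analysed here. IFNLR1, IL10RB, EPCAM, array controls, flanking genes and the 10000 intensity class were added after values were seen. So were ISG15, JAK1, IRF1, VIL1, B2M and the named effectors dim on the HCT116-GFP array. Members and lists were chosen with earlier results of these data known. The procedure was tested on simulated data. Python 3.11.15, pandas 2.3.3, numpy 2.4.6 and statsmodels 0.14.6 (loess) were used. Alternatives covered scaling, brightness bias, the pseudocount, the filter and the choice of probe sets.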

Additional observations from a re-analysis of the deposited data

How the results depend on the processing

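With 1 array per group, no replicate could be left out, and depth is replaced by brightness as the limit on precision. No paired analysis was possible because each group has 1 array. A value was counted as moved when it shifted by more than 0.27, the median gap between the 2 brightest probe sets over 6520 genes, since no replicate spread exists. Of 49 member values under the 8 alternatives, 47 moved by less, 2 moved more and none changed sign. Those were IFI27 (2.70) and IFI44 (1.62) with log2(intensity + 50), where the member median was 1.62, the effector median 1.26 and the interferon ligand median 1.39. The count of members at 2-fold or more was 5 as reported, 5 after quantile normalization, loess and averaging of probe sets, 4 with 50 added, 4 under the stricter filter of 377 and 4 with both arrays at the filter. It was 6 of 8 without a filter and 2 of 2 without _x_at and _s_at probe sets. The share of all genes higher by as much moved too, from 3.55% as reported to 8.91% without a filter, 4.35% without those probe sets, 1.22% with 50 added, 0.734% with both arrays at the filter and 0.473% under the stricter one. The member median was 1.48 under both tighter filters, which leave the same 6 genes, and 3.10 without _x_at and _s_at probe sets. The stricter filter asks for 377 on 1 array only, and IFI27 and IFI35 met it only on the array where they were higher. The ligand median was 0.60 without a filter and 2.39 (IFNL2 alone) under both tighter filters. IFNL2, at 77.0 on the HCT116-GFP array, likewise met the stricter filter only on the labelled array. All other list medians moved by less than 0.27.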
